A study of Mus musculus with 6 samples.

Results

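Expression of 10 imprinted genes was followed in bulk RNA-seq libraries of LβT2 cells, namely *Meg3*, *Dlk1*, *Peg3*, *Snrpn*, *Ndn*, *Grb10*, *Cdkn1c*, *Igf2r*, *Plagl1* and *Impact*. They were chosen by name and not by a threshold on these values, although earlier results of these data were known, and all 10 were found by identifier among the 47069 genes of the count table. LβT2 is an immortalized mouse line with features of pituitary gonadotropes, the cells that make luteinizing and follicle-stimulating hormone. All libraries came from cells of passage 14 grown in DMEM with 10% FBS and treated with gonadotropin-releasing hormone (GnRH) at 2 nM for 40 min, so that no untreated library enters the comparison. In the 3 Fresh libraries the cells were lysed directly after they had been trypsinized and pelleted, whereas in the 3 RNA-Best libraries the pelleted cells were first kept in the RNA-Best preservation buffer and refrigerated, which the methods of the study give as lasting 4 days or more. The comparison asks whether preservation changed the measured level of these transcripts.

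An imprinted gene is transcribed mainly from the copy inherited from a particular parent, under the control of DNA methylation laid down in the egg or the sperm. Imprinted genes lie in clusters, in which a methylated control region and often a long noncoding RNA govern several neighbours at a time, and many of them act on growth, placental function, the brain and the pituitary. *Peg3*, *Snrpn*, *Ndn*, *Dlk1*, *Plagl1* and *Impact* are known as paternally expressed in the mouse, and *Meg3*, *Cdkn1c*, *Igf2r* and, in most tissues, *Grb10* as maternally expressed. Neither the parental origin of the reads nor DNA methylation was measured in these libraries. The values below are therefore total transcript levels, and in bulk samples fewer cells of a type and less RNA per cell cannot be told apart.

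The Fresh libraries held 14477304 to 47438746 counts and the RNA-Best libraries 4909418 to 11999363, so that a count of 0 in a single library allows a level of up to 0.0632 to 0.611 CPM (counts per 1000000 counts of the library). Of 8 gonadotrope markers, 7 passed the filter on low counts, and the remaining marker, *Fshb*, was at 0 in every library. The summed level of these 8 genes was 3724 to 3757 CPM in Fresh and 3180 to 3266 CPM in RNA-Best libraries. The largest part was *Cga*, with means of 1813 CPM in Fresh and 1426 CPM in RNA-Best libraries. Of the 7 tested, 1 rose and 4 fell in edgeR's test, against 26.0% of all tested genes higher and 24.8% lower. The 8 markers of other pituitary cells summed to 1.14 to 1.33 CPM in Fresh and 1.43 to 2.51 CPM in RNA-Best libraries, with *Prl* and *Pou1f1* at 0 throughout, and of the 1 gene that passed the filter, *Tshb*, the log2 fold change was 0.91. The 8 markers of stromal, endothelial and blood cells summed to 190 to 192 and 195 to 208 CPM, with *Col3a1*, *Ptprc* and *Dcn* at 0 throughout, *Pecam1* lower and *Cdh5* higher in RNA-Best libraries. All 3 sums differed between the groups without overlap, and their part in the results below was not tested.

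Sequences just upstream of the transcription start are shown for 4 members, a pair at clearly measured levels and the neighbours *Dlk1* and *Meg3*, whose transcripts were nearly or fully missing from the counts. Each run holds 250 bases of the GRCm38.p6 assembly, taken from RefSeq, on the strand of the gene, with CG dinucleotides, the sites at which mammalian DNA is methylated, in capitals.
Peg3, chr7:6730420-6730669, minus strand: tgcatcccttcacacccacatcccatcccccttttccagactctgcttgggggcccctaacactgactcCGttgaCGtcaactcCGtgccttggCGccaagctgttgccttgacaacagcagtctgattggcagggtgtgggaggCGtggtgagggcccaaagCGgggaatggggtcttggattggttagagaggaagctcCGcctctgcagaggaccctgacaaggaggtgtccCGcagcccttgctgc
Igf2r, chr17:12769707-12769956, minus strand: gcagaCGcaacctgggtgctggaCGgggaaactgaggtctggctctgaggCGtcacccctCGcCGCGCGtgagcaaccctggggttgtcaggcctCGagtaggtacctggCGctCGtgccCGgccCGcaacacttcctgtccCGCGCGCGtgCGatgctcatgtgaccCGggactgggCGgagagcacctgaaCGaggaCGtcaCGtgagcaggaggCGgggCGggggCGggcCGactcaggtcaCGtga
Dlk1, chr12:109452573-109452822, plus strand: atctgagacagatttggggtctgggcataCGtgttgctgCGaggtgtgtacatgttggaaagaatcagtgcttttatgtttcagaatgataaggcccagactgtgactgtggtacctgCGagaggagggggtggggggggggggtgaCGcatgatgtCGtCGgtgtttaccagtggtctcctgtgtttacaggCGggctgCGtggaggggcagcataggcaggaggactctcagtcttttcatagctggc
Meg3, chr12:109540746-109540995, plus strand: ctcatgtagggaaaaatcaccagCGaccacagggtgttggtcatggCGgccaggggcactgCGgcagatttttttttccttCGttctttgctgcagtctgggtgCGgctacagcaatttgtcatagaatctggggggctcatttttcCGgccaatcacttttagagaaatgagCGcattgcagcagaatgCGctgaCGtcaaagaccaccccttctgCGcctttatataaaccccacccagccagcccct

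The *Peg3* and *Dlk1* windows held 8 CG each, the *Meg3* window 10 and the *Igf2r* window 27, against a median of 6 and quartiles of 2 and 16 over 32851 such windows of the mouse genome. *Peg3* and *Dlk1*, which lay near opposite ends of the members' range of expression, thus had the same number of CG in this window. RefSeq windows were found for 8 of the 10 members, 13 windows in all. Their CG ran from 0 in a further window of *Meg3* to 40 in a window of *Grb10*. The window of the nearly silent *Plagl1* held 19 CG and those of *Snrpn* 2 to 4. The hexamer TGCCGC, the core of the methylated motif bound by the imprint protector Zfp57, stood on either strand in 2 of the 13 windows, those of *Plagl1* and the *Meg3* window shown, and in 8.68% of all windows. The motif GCCATNTT of the factor Yy1 was in none of the 13 windows (0) and in 3.91% of all windows. No entry was found for *Cdkn1c* and *Impact*.

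The members fell into a measured set and a nearly silent set. *Peg3*, *Snrpn*, *Ndn*, *Grb10*, *Igf2r* and *Impact* passed the filter on low counts, and *Meg3*, *Dlk1*, *Cdkn1c* and *Plagl1* did not. To compare genes with each other, CPM was divided by the exonic length of the gene in kilobases, which in the annotation is the union of all its transcripts. On this scale, per kilobase, *Peg3* led in Fresh libraries with 10.2 ± 0.204 CPM per kb (SD, n = 3 libraries), followed by *Snrpn* with 9.90 ± 0.162, and the ranges of the pair overlapped. *Impact* with 6.24 ± 0.330 CPM per kb and *Igf2r* with 3.75 ± 0.162 came next, each apart from its neighbours. *Ndn* with 1.16 ± 0.0929 CPM per kb and *Grb10* with 0.948 ± 0.0756 closed the order, with ranges of 1.11 to 1.27 and 0.866 to 1.02. In RNA-Best libraries *Peg3* stood alone at 15.5 ± 0.302 CPM per kb, while *Snrpn* with 8.53 ± 1.11 and *Impact* with 7.36 ± 0.175 overlapped. *Igf2r* followed with 4.91 ± 0.153 CPM per kb. *Grb10* with 1.07 ± 0.0438 and *Ndn* with 0.993 ± 0.0673 CPM per kb overlapped as well, in the reverse order of the Fresh libraries.

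**Figure D1:**
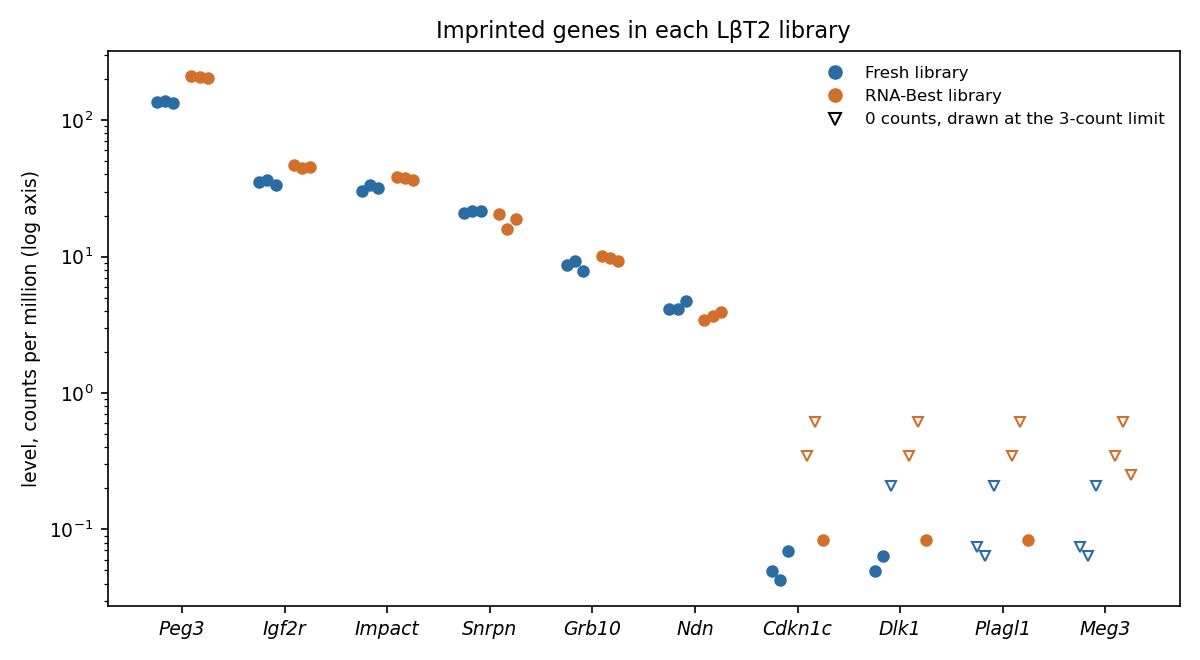
Level of each member in CPM (log axis), in each of the 3 Fresh and 3 RNA-Best libraries. *Peg3* ran from 132.8 to 211.1 CPM, *Ndn* from 3.42 to 4.697 CPM, and *Meg3*, *Dlk1*, *Cdkn1c* and *Plagl1* lay at or near the floor.

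Of the 6 members tested, 4 passed edgeR's quasi-likelihood test at an adjusted p under 0.05, against 50.8% of all 14736 genes tested. *Peg3*, *Igf2r* and *Impact* rose in RNA-Best libraries (26.0% of all tested genes were higher) and *Snrpn* fell (24.8% were lower). The groups did not overlap in 6 of the 6 tested members, against 57.5% of all tested genes. The median log2 fold change of the 6, RNA-Best relative to Fresh, was 0.16, and that of all tested genes -0.01. The summed level of the 10 members was 235.5, 243.1 and 232 CPM in the Fresh libraries and 331, 318.2 and 317.1 CPM in RNA-Best libraries, and most of it was *Peg3*. Nothing in the labels says that the 3 libraries of a group were separate cultures, and the p-values then measure only the spread between these libraries, which may be technical.

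*Peg3* encodes a large zinc finger protein and is an imprinted gene of the proximal part of mouse chromosome 7 (7:6703892-6730431, GRCm38, minus strand). Its level was 136.1, 138.1 and 132.8 CPM in Fresh and 211.1, 206.3 and 203.1 CPM in RNA-Best libraries. The Fresh libraries stayed within 6 CPM of each other, and the lowest RNA-Best library lay far above all of them. The means were 135.7 ± 2.71 and 206.8 ± 4.03 CPM (SD, n = 3 libraries each). This was a log2 fold change of 0.59 ± 0.03 (SE), or 1.5-fold, with a 95% interval from 0.52 to 0.65 (edgeR, adjusted p = 4.81e-17). *Peg3* had the largest change among the members tested and passed the test under each of the 18 alternative settings tried, but an offset for exonic length lowered it to 0.25 (edgeR, adjusted p = 3.87e-08).

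*Igf2r* encodes the receptor that binds insulin-like growth factor 2 and mannose 6-phosphate and carries its ligand to the lysosome, and is known as maternally expressed in the mouse (17:12682406-12769664, minus strand). Its level was 35.18, 36.19 and 33.22 CPM in Fresh and 47.30, 44.61 and 45.17 CPM in RNA-Best libraries. Here too the groups did not overlap, and the spread within each was small. The log2 fold change was 0.36 ± 0.05 (SE), or 1.29-fold, with a 95% interval from 0.26 to 0.47 (edgeR, adjusted p = 3.99e-07). An offset for exonic length lowered it to 0.14 (edgeR, adjusted p = 0.0290), and against a minimum change of 1.2-fold the call was lost (adjusted p = 0.0655). *Impact*, a regulator of the kinase GCN2 in protein synthesis, lies on chromosome 18 (18:12955852-12992950, plus strand). Its level was 30.32, 33.71 and 31.91 CPM in Fresh and 38.53, 37.89 and 36.75 CPM in RNA-Best libraries. All RNA-Best libraries exceeded all Fresh libraries, but the distance between the groups was close to the range within the Fresh group. For *Impact* the log2 fold change was 0.22 ± 0.06 (SE), or 1.16-fold, with a 95% interval from 0.10 to 0.33 (edgeR, adjusted p = 0.00221). The call was lost with an offset for GC content, at 0.08 (edgeR, adjusted p = 0.292), and against a minimum change of 1.2-fold (adjusted p = 1).

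*Grb10* encodes an adaptor that dampens signalling from the insulin and insulin-like growth factor receptors (11:11930508-12038683, minus strand). Its level was 8.733, 9.233 and 7.874 CPM in Fresh and 10.03, 9.777 and 9.25 CPM in RNA-Best libraries. The highest Fresh library and the lowest RNA-Best library almost touched. The log2 fold change was 0.11 ± 0.10 (SE), with a 95% interval from -0.10 to 0.32 (edgeR, adjusted p = 0.402). *Ndn*, or necdin, a growth-restraining protein of the MAGE family, lies in the Prader-Willi/Angelman region (7:62346569-62350262, plus strand). Its level was 4.095, 4.111 and 4.697 CPM in Fresh and 3.42, 3.666 and 3.917 CPM in RNA-Best libraries. All RNA-Best libraries were below all Fresh libraries, by little. Necdin transcripts had a log2 fold change of -0.19 ± 0.15 (SE), with a 95% interval from -0.50 to 0.11 (edgeR, adjusted p = 0.326), an interval that includes 0.

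**Figure D2:**
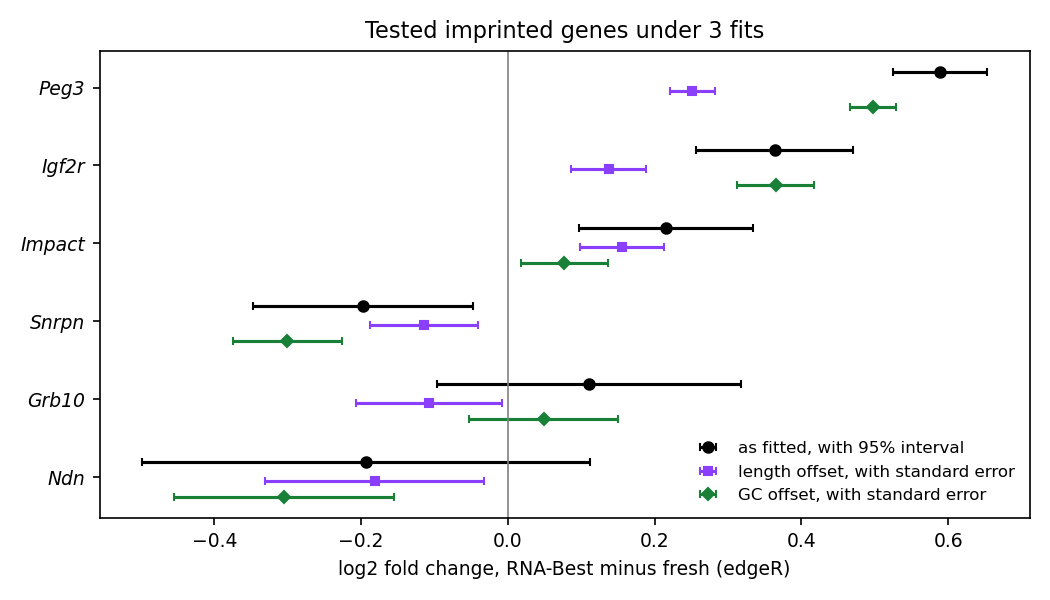
Log2 fold change of the 6 tested members, RNA-Best relative to Fresh, as fitted (with the 95% interval) and with an offset for exonic length or for GC content (with the SE). *Peg3* moved from 0.59 to 0.25 with the length offset, and *Grb10* from 0.11 to -0.11.

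*Snrpn* encodes SmN, a protein of the spliceosome found mainly in brain, and shares its locus with *Snurf*, a short upstream reading frame on the same messenger (7:59982495-60140219, minus strand). Its level was 20.97, 21.64 and 21.48 CPM in Fresh and 20.63, 15.89 and 18.71 CPM in RNA-Best libraries. The Fresh libraries were nearly equal and the RNA-Best libraries spread, with the first just under the Fresh group and the second well below it. The second RNA-Best library held 78 counts of *Snrpn*, for which counting alone gives a coefficient of variation of 11.3% and a 95% Poisson interval of 12.6 to 19.8 CPM. Such intervals and the floors given for counts of 0 cover counting error only. The log2 fold change was -0.20 ± 0.07 (SE), with a 95% interval from -0.35 to -0.05 (edgeR, adjusted p = 0.0247). The call was lost without the second RNA-Best library, at -0.14 (adjusted p = 0.140), without the third, at -0.19 (adjusted p = 0.118), without the second Fresh library, at -0.19 (adjusted p = 0.0589), and also with an offset for exonic length, at -0.11 (adjusted p = 0.226). It held without the first RNA-Best library, at -0.27 (adjusted p = 0.0115), with an offset for GC content, at -0.30 (adjusted p = 0.00082), and with all libraries thinned to the smallest, at -0.36 (adjusted p = 0.0113).

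An annotated gene of the same strand, *Gm38393* (7:59974149-60005064), overlaps *Snrpn*, and the exons of the pair share 589 bases. These are 27.3% of the exonic bases of *Snrpn* and 11.3% of those of *Gm38393*. Its level was 0.641, 0.590 and 0.414 CPM in Fresh and 3.31, 4.48 and 4.00 CPM in RNA-Best libraries. The groups lay far apart, and the second RNA-Best library, which was lowest for *Snrpn*, was highest for *Gm38393*. The log2 fold change of *Gm38393* was 2.69 ± 0.21 (SE), or 6.47-fold (edgeR, adjusted p = 7.93e-13). With an offset for exonic length it stayed at 2.63 (edgeR, adjusted p = 1.185e-11). Its mean rose by 3.38 CPM, while that of *Snrpn* changed by -2.95 CPM. With the counts of both genes added together, a choice made after their values were seen, the level was 21.61, 22.23 and 21.90 CPM in Fresh and 23.94, 20.37 and 22.71 CPM in RNA-Best libraries. These groups overlapped, with a log2 fold change of 0.03 ± 0.07 (SE) and a 95% interval from -0.10 to 0.17 (edgeR, adjusted p = 0.714). The lower level of *Snrpn* thus describes the counts given to that gene, and how reads of the shared bases were divided was not tested. The sum does not show whether the changes of the pair are linked.

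*Snurf* was listed at 0 in all 6 libraries. All of its 216 annotated exonic bases lie within exons of *Snrpn* and of *Gm38393*, so that no base is its own, and a 0 for *Snurf* says nothing of its transcript. The study designed a PCR primer pair named for *Snurf* and a pair for *Igf2r*, which are printed because they show which transcript each name stands for.
snurf forward: tggggagaacttggtttcaa
snurf reverse: gcaagaggcacacgagcaa
igf2r forward: cagtatgcaaagttcctgtgga
igf2r reverse: ttgaatattggagggcctgt

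The snurf primers lay in exon 6 (7:59986801-59986820) and exon 7 (7:59985958-59985976) of *Snrpn*, spanning a product of 75 bases. Both primers were present in 2 of 2 *Snrpn* transcripts and in 0 transcripts of *Snurf* or *Gm38393*. By sequence, the pair named for *Snurf* thus matches the *Snrpn* messenger. Both primers lie within the span of *Gm38393*, and whether either falls in the bases shared with it was not examined. The igf2r primers lay in exons 35 (17:12697338-12697359) and 36 (17:12695401-12695420) of *Igf2r*, with a product of 70 bases, and both were present in 1 of 3 annotated *Igf2r* transcripts. *Snrpb*, the paralog of *Snrpn* that encodes the SmB proteins, shared no run of bases as long as a read with it. *Snrpb* measured 304.7, 310.8 and 325.4 CPM in Fresh and 247, 249.8 and 241.1 CPM in RNA-Best libraries, with a log2 fold change of -0.36 (edgeR, adjusted p = 5.85e-12).

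**Figure D3:**
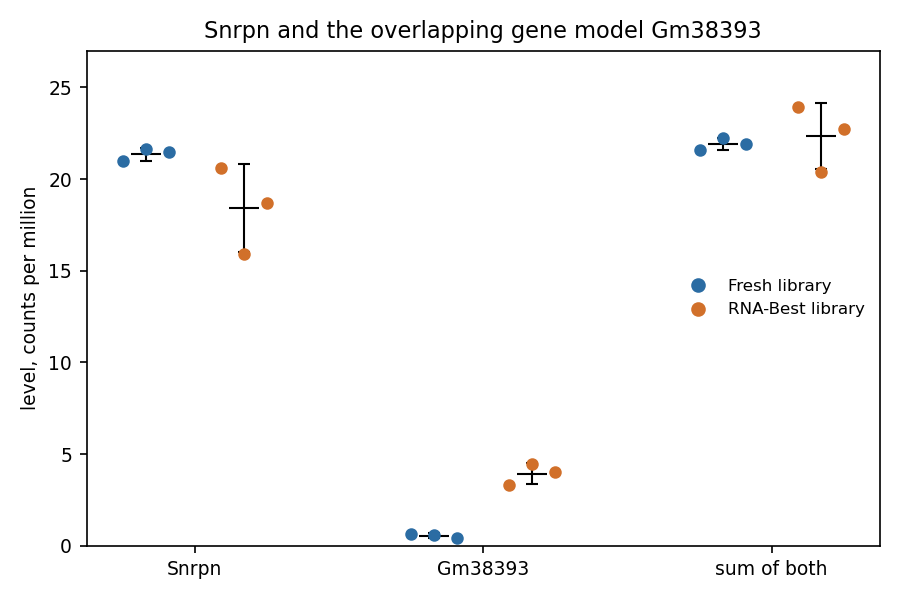
CPM of *Snrpn*, of the overlapping gene *Gm38393* and of both added together, in each of the 3 Fresh and 3 RNA-Best libraries. *Snrpn* was lower (means 21.36 and 18.41 CPM) and *Gm38393* higher (0.549 and 3.93 CPM) in RNA-Best libraries, and their sum overlapped between the groups (21.91 and 22.34 CPM).

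The remaining 4 members were at or near the limit of detection. *Meg3*, the long noncoding RNA of the maternal chromosome in the Dlk1-Dio3 region (12:109541001-109571726, plus strand), had 0 counts in all 6 libraries, which over their 128133221 counts allows up to 0.0234 CPM. *Dlk1*, a transmembrane protein of the Delta and Notch family (12:109452823-109463336, plus strand), had 2, 3 and 0 counts in Fresh and 0, 0 and 1 in RNA-Best libraries. *Cdkn1c*, which encodes the cell cycle inhibitor p57 (7:143458339-143461050, minus strand), had 2, 2 and 1 counts in Fresh and 0, 0 and 1 in RNA-Best libraries. Both genes thus had 6 counts in all, or 0.0468 CPM with an exact 95% Poisson interval of 0.0172 to 0.102 CPM. *Plagl1*, a zinc finger factor that restrains growth (10:13060504-13131694, plus strand), had a single count, in the third RNA-Best library, with an interval of 0.000198 to 0.0435 CPM over all libraries. No difference between the groups could be detected at these counts. Of the annotated sequence of *Meg3*, 8.93% of its runs as long as a read also occur in another gene, and of that of *Cdkn1c* 19.4%, so that most of each gene is not shared at this length.

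Low counts extended over the whole Dlk1-Dio3 region. Its 6 listed genes together had 10 counts, of which 8 fell in Fresh and 2 in RNA-Best libraries. None of them (0) passed the filter. *Rian* and *Mirg*, noncoding RNAs of the same maternal transcription unit as *Meg3*, were at 0, *Rtl1* had 1 count and *Dio3*, a deiodinase of thyroid hormone, had 3. In the Kcnq1 region, where *Cdkn1c* lies, some genes were nearly silent and others were not. *Kcnq1* had 3 counts, *Phlda2* 3, *Ascl2* 4 and *Slc22a18* 6, while *Kcnq1ot1*, the noncoding RNA transcribed from the paternal copy, and *Tssc4* were clearly measured.

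*Kcnq1ot1* rose from 10.72, 12.45 and 11.60 CPM in Fresh to 16.43, 18.54 and 16.78 CPM in RNA-Best libraries. The difference was 0.53 ± 0.09 (SE) on the log2 scale, with no overlap between the groups (edgeR, adjusted p = 3.26e-06). With an offset for exonic length it was 0.10 and no longer passed (edgeR, adjusted p = 0.333). *Tssc4* fell from 88.05 ± 1.51 to 70.10 ± 1.5 CPM (SD, n = 3 libraries each), a log2 fold change of -0.33 (edgeR, adjusted p = 1.58e-08). In the Igf2r region *Airn*, the noncoding RNA that runs antisense through *Igf2r* on the paternal copy, measured 1.505, 1.623 and 1.243 CPM in Fresh and 2.28, 4.277 and 2.75 CPM in RNA-Best libraries. *Airn* and *Igf2r* were thus both higher in RNA-Best libraries, *Airn* by a log2 fold change of 0.90 ± 0.21 (SE) (edgeR, adjusted p = 0.000354). The second RNA-Best library stood highest for *Airn*, with 21 counts. *Slc22a2* and *Slc22a3*, transporters of organic cations, had 2 and 44 counts in all.

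In the Prader-Willi/Angelman region *Ube3a*, the ubiquitin ligase of Angelman syndrome, rose from 82.19 ± 5.29 to 103.9 ± 2.23 CPM (SD, n = 3 libraries each), with a log2 fold change of 0.31 (edgeR, adjusted p = 1.64e-07). With an offset for exonic length its direction turned, to -0.13 (edgeR, adjusted p = 0.00958). Its exons overlap a noncoding RNA of the opposite strand, *Snhg14*, over 8.74% of their length. *Mkrn3*, a makorin involved in the timing of puberty, had a log2 fold change of 0.05 (edgeR, adjusted p = 0.892), and *Magel2* and *Peg12* had 1 and 5 counts. Beside *Peg3*, *Usp29* measured 1.727 to 2.656 CPM in Fresh and 2.444 to 3.0 CPM in RNA-Best libraries, which overlapped (edgeR, adjusted p = 0.501), and *Zim1* had 17 counts. *Igf2*, the growth factor cleared by *Igf2r*, measured 1.554, 1.644 and 1.381 CPM in Fresh and 1.482, 0.815 and 1.333 CPM in RNA-Best libraries, with a log2 fold change of -0.30 ± 0.24 (SE) (edgeR, adjusted p = 0.355). Its neighbour *H19* had 22 counts and was not tested.

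**Figure D4:**
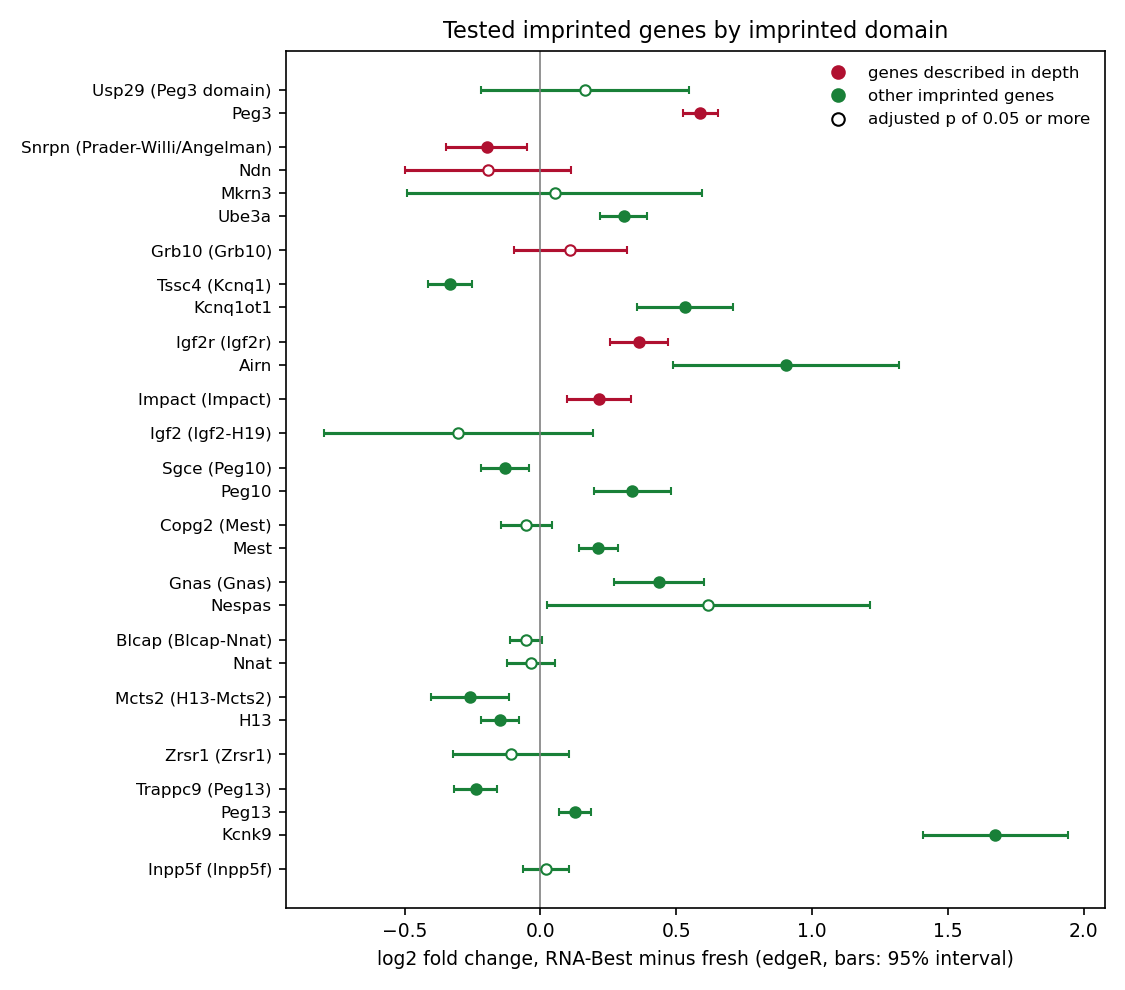
Log2 fold change, RNA-Best relative to Fresh, of the tested imprinted genes by region, with filled circles for an adjusted p under 0.05 and open circles otherwise. *Kcnk9* lay highest at 1.67, the Kcnq1 region held *Kcnq1ot1* at 0.53 and *Tssc4* at -0.33, and the Dlk1-Dio3 region had no gene to plot.

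Over the 44 other imprinted genes found in the table, 5 were at 0 in every library and 22 passed the filter. Of these 22, 8 rose, 5 fell and 9 did not pass the test, against 26.0% of all tested genes higher and 24.8% lower, with a median log2 fold change of 0.04. With an offset for exonic length, described below, 5 were higher and 6 lower, with a median of -0.06, while over all tested genes 15.9% were then higher and 24.7% lower. Outside the regions of the members, the largest change was that of *Kcnk9*, a potassium channel expressed from the maternal copy in brain, which measured 2.516, 2.951 and 2.349 CPM in Fresh and 9.119, 9.573 and 8.0 CPM in RNA-Best libraries. This was 3.19-fold, a log2 fold change of 1.67 ± 0.13 (SE) (edgeR, adjusted p = 6.26e-13). *Gnas*, which encodes the stimulatory G protein subunit, rose by 0.44 on the log2 scale (edgeR, adjusted p = 2.61e-05), and *Peg10*, a gene derived from a retrotransposon, by 0.34 (edgeR, adjusted p = 9.94e-05). Genes of the opposite strand overlap 22% of the exonic bases of *Gnas*. The lowest changes past the test outside those regions were those of *Mcts2* with -0.26 (edgeR, adjusted p = 0.00242), *Trappc9* with -0.24 (edgeR, adjusted p = 4.51e-06) and *H13* with -0.15 (edgeR, adjusted p = 0.000376). *Mcts2* is a retrogene within an intron of *H13*, a signal peptide peptidase.

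Genes known to be expressed from the paternal copy and from the maternal copy were found both among those that rose and among those that fell. Among the members, 4 paternally expressed genes were tested, of which 2 rose, 1 fell and 1 did not pass the test, and 2 maternally expressed genes, of which 1 rose and 1 did not pass. Among the other imprinted genes, 14 paternally expressed genes were tested, with 5 higher and 2 lower, and 8 maternally expressed genes, with 3 higher and 3 lower. Over all tested genes 26.0% were higher and 24.8% lower. These are small counts of the fit without an offset, and the difference between them was not tested. With the length offset some calls change, among them those of the maternally expressed *Ube3a* and *Gnas* and the paternally expressed *Kcnq1ot1* and *Mcts2*.

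Factors that keep imprints through early development were measured beside them. Of 12 listed factors 10 passed the filter, 7 rose and 1 fell, against 26.0% and 24.8% of all tested genes, with a median log2 fold change of 0.28. With the length offset 3 were called higher and 2 lower, against 15.9% and 24.7% of all tested genes, with a median of -0.02. *Zfp445*, a zinc finger protein that binds imprinting control regions, rose from 11.64, 12.02 and 9.739 CPM in Fresh to 34.65, 28.72 and 31.50 CPM in RNA-Best libraries, 2.76-fold (edgeR, adjusted p = 1.26e-17). *Arid4a*, a chromatin protein, rose by 0.60 on the log2 scale (edgeR, adjusted p = 1.82e-09) and *Dnmt1*, the maintenance DNA methyltransferase, by 0.15 (edgeR, adjusted p = 1.27e-05). *Trim28*, the corepressor through which such zinc finger proteins act, fell from 567.6 ± 9.54 to 501.3 ± 1.2 CPM (SD, n = 3 libraries each), a log2 fold change of -0.19 (edgeR, adjusted p = 2.57e-07). *Zfp57* had 2 counts in all and *Dppa3* none (0).

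Fold changes between the groups moved with exonic length over all tested genes. The median log2 fold change was -0.22 in 1571 genes of up to 1 kb, -0.10 in 4070 genes of 2 to 4 kb, 0.09 in 5963 genes of 4 to 10 kb and 0.32 in 1244 genes of over 10 kb. *Peg3*, with 13.3 kb, was in the longest class, of which 76.8% was called higher, and its 0.59 lay above the upper quartile of that class, 0.48. *Igf2r* with 9.31 kb, *Grb10* with 9.09 kb and *Impact* with 5.13 kb were in the class of 4 to 10 kb, of which 38.0% was called higher. *Ndn* with 3.69 kb and *Snrpn* with 2.16 kb were in the class of 2 to 4 kb, of which 35.3% was called lower. The fitted direction of each of the 6 tested members was that of the median of its length class, as it is for most genes of any class. *Grb10* and *Ndn* did not pass the test, so their direction is not settled. This match was not tested.

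With an offset for exonic length fitted in each library, 40.6% of all tested genes were called, 15.9% higher and 24.7% lower. *Peg3* and *Igf2r* passed at the lower values given above, and *Impact* at 0.16 (edgeR, adjusted p = 0.0298). *Snrpn* no longer passed, and *Grb10* turned to -0.11 (edgeR, adjusted p = 0.419). The median of the 6 tested members was then 0.01, against -0.04 over all tested genes. Among the other genes named, *Gnas* moved to 0.16 with the length offset (edgeR, adjusted p = 0.118), *Mcts2* to -0.12 (adjusted p = 0.190) and *Peg10* to 0.21 (adjusted p = 0.0149), while *Trappc9* moved to -0.42 and *H13* to -0.36. *Dnmt1* moved to -0.01 (edgeR, adjusted p = 0.794), whereas *Kcnk9* at 1.37, *Zfp445* at 1.30 and *Airn* at 0.92 stayed high. What underlies the relation with length was not tested.

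**Figure D5:**
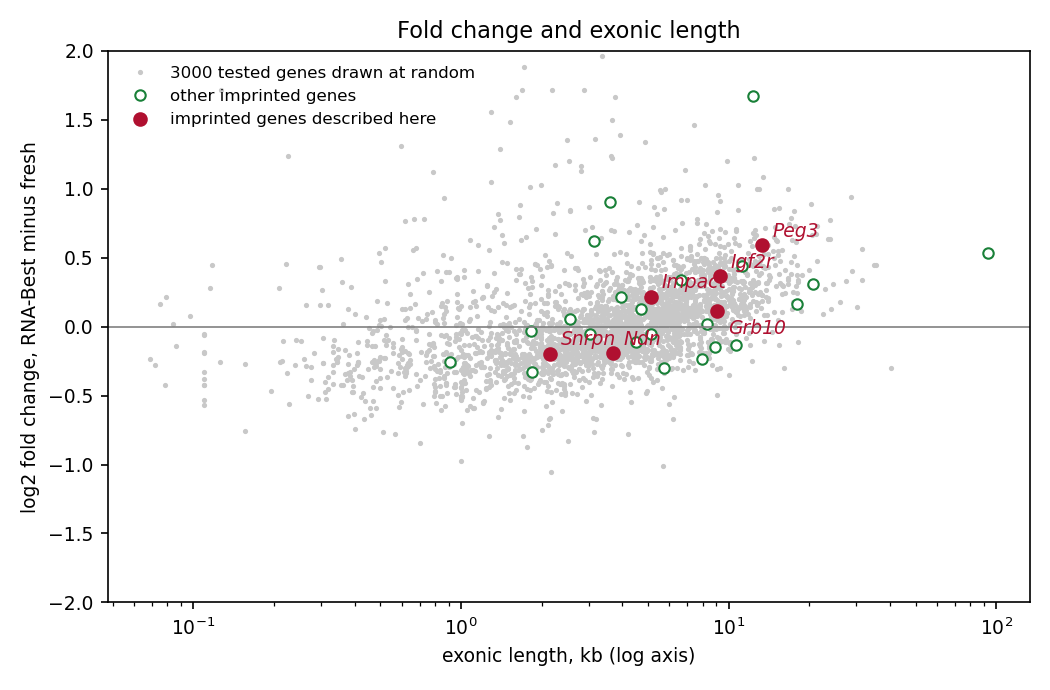
Log2 fold change, RNA-Best relative to Fresh (axis from -2 to 2), against exonic length in kb (log axis) for tested genes drawn at random. In colour are the 6 tested members (named) and the other imprinted genes tested (open circles). Genes of up to 1 kb centred on -0.22 and genes over 10 kb on 0.32, and *Peg3* (13.3 kb, 0.59) lay above the middle of the longest class.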

How the data were processed

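LβT2 cells treated with GnRH gave 6 bulk mRNA libraries, 3 Fresh and 3 RNA-Best. Reads were aligned to GRCm38 by the authors with STAR 2.5.1b and counted per gene with featureCounts 1.5.0-p1. The deposited values are estimated counts, not scaled for library size, of which 9.36% to 16.3% per library were not whole (tolerance 0.001). The strand and multiple-overlap settings of the counting are not given in the sources used here, so overlapping and antisense genes are uncertain. Counts per library ranged from 4909418 to 47438746, and CPM used these totals.

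Counts were rounded and tested in R 4.3.3 with the quasi-likelihood test of edgeR 4.0.16 (TMM scaling, filterByExpr with a minimum count of 10, Benjamini-Hochberg adjustment over all 14736 genes tested). DESeq2 1.42.0 and limma 3.58.1 served as alternatives, with other scalings, filters, a threshold on the fold change, a replicate block, loess offsets (span 0.5) for length or GC content, thinning and leaving out each library. The edgeR procedure was tested on simulated counts with known changes.

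Positions and lengths came from GENCODE M21 on GRCm38, later than the release of the authors, matching 46574 of 47069 identifiers, of which 46488 had a GC content. Named are all members, the other imprinted genes of their regions, *Igf2*, *H19*, the 3 largest and 3 smallest changes past the test among imprinted genes outside those regions, the 2 largest and 2 smallest among factors that keep imprints, and paralogs or overlapping genes of a member. Members, lists and rules were chosen with earlier results of these data known. *Zfp264* was listed and not matched. The single-cell and PCR data of the study were not used here.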

Additional observations from a re-analysis of the deposited data

How the results depend on the processing

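Directions were kept by *Peg3*, *Igf2r*, *Impact*, *Snrpn* and *Ndn* under all 18 alternatives, and by *Grb10* except with a length offset (-0.11) and with a replicate block and length offset together (-0.059). Counted together with *Gm38393*, a setting added after seeing the data, *Snrpn* turned to 0.033. Of the 4 members called, 3 to 4 passed without any single library. Against a fold change of at least 1.2 (glmTreat), 1 member (*Peg3*), 4 other imprinted genes, 5 factors that keep imprints and 1693 genes in all passed. Of the 12 listed factors that keep imprints, 5 passed with the length offset and 5 with the block and length offset, not all of them those that passed glmTreat. *Igf2r* missed glmTreat (adjusted p = 0.0655), as did *Impact* and *Snrpn*, and *Snrpn* missed DESeq2's Wald test (adjusted p = 0.0990). The causes were not tested. Leaving out single libraries gave 6357 to 7273 genes called and 12 to 13 other imprinted genes. No shared effect of the replicate number was seen, as deviations of libraries with the same number correlated at -0.00844, 0.0121 and -0.0077. Counting error can hide a small effect, so these values cannot exclude pairing. With a replicate block 7472 genes, 4 members and 13 other imprinted genes were called. Without a filter 27250 genes were tested, with a median log2 fold change of -0.06. Depth limits *Meg3*, *Dlk1*, *Cdkn1c* and *Plagl1*, and *Snrpn* in the second RNA-Best library.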

Other observations

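Neighbouring imprinted genes outside the regions of the members did not all move in the same direction. In the region of *Peg13* on mouse chromosome 15, a noncoding RNA of the paternal copy, *Peg13* itself measured 301.6, 297.2 and 291.6 CPM in Fresh and 332.6, 329.8 and 321.9 CPM in RNA-Best libraries, higher by 0.13 on the log2 scale (edgeR, adjusted p = 0.00036). *Trappc9*, a trafficking protein gene in which *Peg13* lies, fell from 121.5 ± 5.12 to 102.5 ± 4.21 CPM (SD, n = 3 libraries each), and *Kcnk9* beside it rose from 2.605 ± 0.311 to 8.898 ± 0.810 CPM. In the region of *Peg10*, which rose from 19.33 ± 0.536 to 24.19 ± 2.63 CPM, the adjacent *Sgce*, which encodes epsilon-sarcoglycan, fell by 0.13 on the log2 scale, from 70.19 ± 0.977 to 65.26 ± 2.23 CPM (edgeR, adjusted p = 0.0112). *Mest*, a paternally expressed gene of the hydrolase family that overlaps *Copg2* on the opposite strand over 23.1% of its exonic bases, rose from 128 ± 2.83 to 151 ± 6.20 CPM, a log2 fold change of 0.21 (edgeR, adjusted p = 4.37e-06). With the length offset *Mest* stayed at 0.21, *Peg10* moved from 0.34 to 0.21 (edgeR, adjusted p = 0.0149), *Peg13* from 0.13 to 0.08 and *Kcnk9* from 1.67 to 1.37, whereas *Trappc9* moved from -0.24 to -0.42 and *Sgce* from -0.13 to -0.40. In DESeq2's Wald test *Sgce* did not pass (adjusted p = 0.0699). *Peg13*, *Sgce* and *Mest* were named after their values were seen, and the differences between neighbours were not tested.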
